A study of Mus musculus with 10 samples.

Results

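The genes described here were 10 genes that mark homeostatic microglia, chosen by name: Cx3cr1, P2ry12, Tmem119, Csf1r, C1qa, C1qb, C1qc, Aif1, Adgre1 and Sall1. All 10 were found among the 53379 genes counted, and all 10 were among the 19754 genes with enough counts to be tested. RNA was sequenced from sorted hippocampal cells of male mice, 5 weeks old by the labels, with 8 mice pooled per condition. Wild-type C57BL/6 mice had received a pair of viruses, AAV9-c-Fos-tTA together with AAV9-TRE-ChR2-EYFP, so that cells active while Dox was withdrawn were tagged with EYFP. Aversive libraries (neg, n = 2) came from mice given 4 foot shocks of 2 s at 1.5 mA. Appetitive libraries (pos, n = 2) came from males kept with a female for 1 h, though the Methods of the study give 2 h. Neutral libraries (neu, n = 3) came from mice placed in the conditioning cage with neither stimulus, and mock libraries (n = 3) came from untagged mice left in the home cage. The study asked whether cells tagged by experiences of different valence differ in their transcripts, with neutral and mock as controls.

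The tag limits what these groups model: it is driven by the c-Fos promoter after virus injection into the ventral hippocampus, and the Methods describe sorted cells where the Results describe nuclei. Mock material had no tag, and the Methods give 2 mice for it. Nothing in the labels tells whether the libraries within a group are separate pools of mice, so p-values measure only the spread between these libraries, which may be technical. Neutral libraries were made with another kit version and read as 100 bp pairs on another sequencer, against 40 bp single reads for all other groups, so condition and library preparation cannot be told apart in any comparison with neutral. Total counts ran from 16968588 to 67650693 per library, with the 3 neutral libraries deepest.

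The C1q genes lie side by side on chromosome 4 of GRCm38, all on the minus strand: C1qb at chr4:136880129-136886187, C1qc at chr4:136889804-136893065 and C1qa at chr4:136895917-136898803. Aif1 (chr17:35170991-35176068, minus strand) and Adgre1 (chr17:57358691-57483527, plus strand) share chromosome 17. Sall1 is at chr8:89027235-89044162 and Tmem119 at chr5:113793729-113800516, both on the minus strand and with no other gene over them. Counting ignored strand, and 3 of the genes share exonic bases with a gene on the other strand: Csf1r (chr18:61100598-61132149, plus strand) shares 873 with Hmgxb3, Cx3cr1 (chr9:119901616-120069879, minus strand) shares 78 with Gm33858, and P2ry12 (chr3:59216272-59262871, minus strand) shares 9 with Med12l. Reads over those bases could belong to either gene.

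Microglia are the resident macrophages of the brain parenchyma, and in their resting, homeostatic state they survey neurons and synapses with motile processes. They are kept alive by signalling through the CSF1 receptor, sense neurons through the fractalkine receptor and purines through P2RY12, and make most of the C1q of the brain, the recognition molecule that starts the classical complement pathway. Their identity rests on the myeloid factor SPI1 (PU.1), on IRF8 and MEF2C, and on SALL1, which among macrophages is largely particular to microglia.

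RefSeq promoter windows on GRCm38.p6 were at hand for 6 of the 10 genes, with 8 windows in all. The 250 bases before each RefSeq start were searched on both strands for the core letters of 3 myeloid or microglial factors. The letters AGGAAGT, a SPI1 site, stood in windows of 4 genes (P2ry12, C1qb, C1qc and Sall1). Over all genes they stood in 7.69% of 32817 promoter windows, a share per window and not per gene. In C1qb they lay 53 to 47 bases before the start and in P2ry12 52 to 46 bases before it. The interferon regulatory factor letters, GAAA, any 2 bases and GAAA, stood in Aif1 (2.97% of all windows), and the MEF2 letters, CTA, any 4 bases and TAG, which read alike on both strands, stood in Cx3cr1, 67 to 58 bases before the start (3.20%). A match describes the letters only. The windows below are shown because they put C1qb, the most abundant of the 10 transcripts per kb, beside its neighbour C1qc and beside Sall1 and Aif1, whose levels across libraries were less like the rest. Capitals mark the matched letters, read on the gene's strand, so that ACTTCCT is AGGAAGT on the other strand. Stretches that overlap annotated exons were left out. The Sall1 window lies inside the gene span given above, downstream of the GENCODE start.
C1qb, chr4:136886201-136886450, minus strand: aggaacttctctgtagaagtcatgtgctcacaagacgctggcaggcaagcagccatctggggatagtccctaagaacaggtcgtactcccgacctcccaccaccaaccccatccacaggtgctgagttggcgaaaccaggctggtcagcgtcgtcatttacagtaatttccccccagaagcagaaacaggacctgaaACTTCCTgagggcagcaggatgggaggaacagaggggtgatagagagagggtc
C1qc, chr4:136893066-136893164, minus strand: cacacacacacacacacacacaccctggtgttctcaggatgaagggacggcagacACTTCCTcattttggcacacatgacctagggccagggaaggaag
Sall1, chr8:89042863-89043112, minus strand: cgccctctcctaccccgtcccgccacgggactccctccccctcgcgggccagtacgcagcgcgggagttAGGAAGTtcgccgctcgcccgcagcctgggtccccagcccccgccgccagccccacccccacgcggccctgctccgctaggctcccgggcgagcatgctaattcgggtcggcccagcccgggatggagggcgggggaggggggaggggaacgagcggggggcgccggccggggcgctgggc
Aif1, chr17:35176069-35176302, minus strand: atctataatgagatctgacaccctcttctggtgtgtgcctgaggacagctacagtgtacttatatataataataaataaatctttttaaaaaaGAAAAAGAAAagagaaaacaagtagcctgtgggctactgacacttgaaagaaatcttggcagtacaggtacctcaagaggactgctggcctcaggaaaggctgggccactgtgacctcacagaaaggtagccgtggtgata

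Microglia transcripts were present in every library, including the tagged ones, and were scarcest in neutral. Summed over the 10 genes, levels in CPM, the count scaled to the TMM-normalized library size, were 1348, 1884 and 8787 in mock libraries 1, 2 and 3. The sums were 6300 and 1980 in aversive libraries 1 and 3, and 3548 and 892 in appetitive libraries 1 and 2. In neutral libraries 1, 2 and 3 they were 19.2, 376 and 258. Every neutral library was below every other library, while mock, aversive and appetitive overlapped widely. As a share of raw counts the genes made up 0.116 to 1.27% of mock, 0.252 to 0.464% of aversive, 0.100 to 0.170% of appetitive and 0.00203 to 0.0481% of neutral libraries. Mock library 3 held the highest value for 5 of the genes (Cx3cr1, P2ry12, Tmem119, Csf1r and Sall1) and aversive library 1 for the other 5. Neutral library 1 held the lowest value for all 10, with 1220 counts over the 10 genes and 6 of them above 3 counts. In bulk RNA, fewer microglia and less RNA per microglial cell cannot be told apart.

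**Figure D1:**
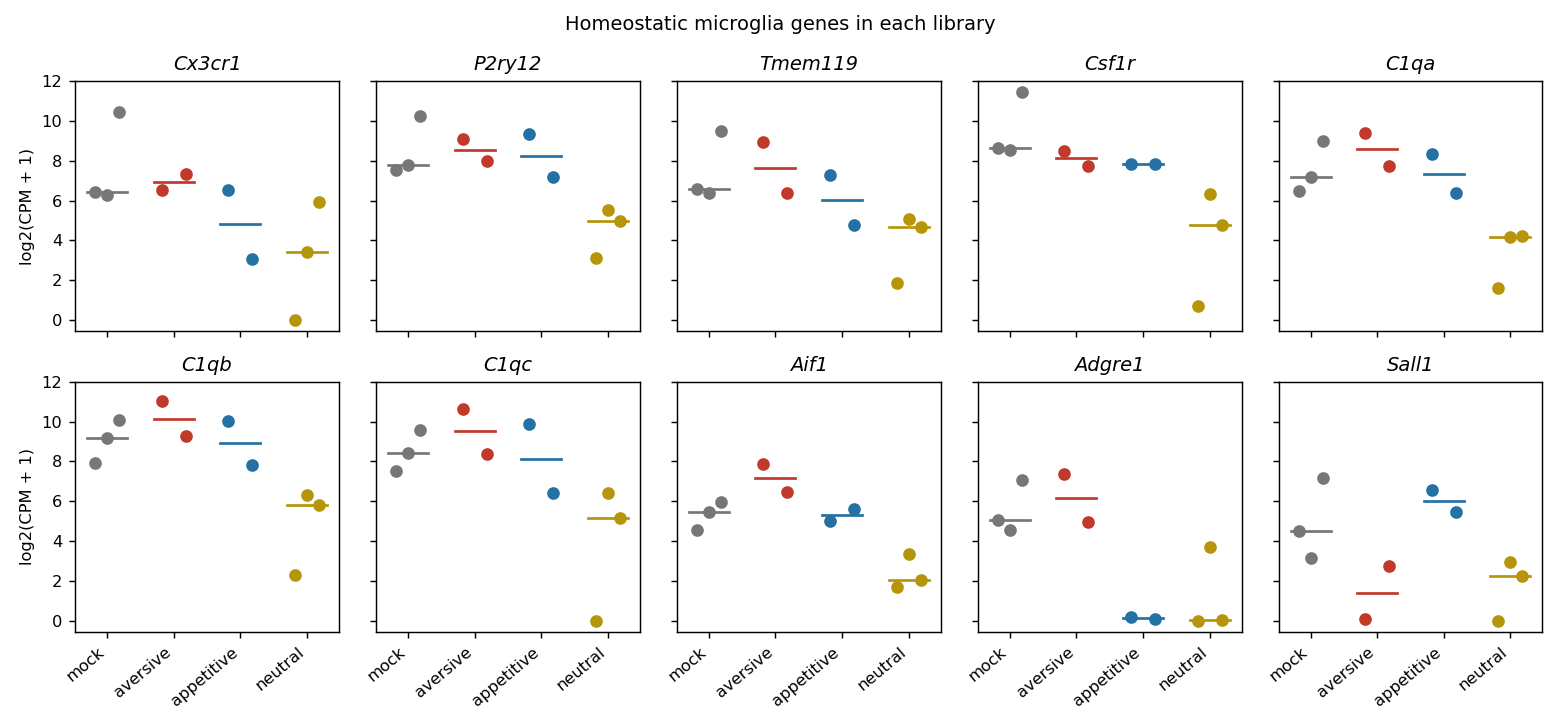
Each panel plots log2(CPM + 1) of 1 gene by group, with a point for each library in the order of replicate numbers and a line at the group median. Neutral points sit lowest in most panels, mock library 3 stands above the other mock libraries, and Adgre1 in appetitive and Sall1 in aversive libraries are near the level of neutral.

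The receptors came first. Cx3cr1 encodes the receptor for the neuronal chemokine fractalkine. Its CPM was 83.9, 75.9 and 1403 in mock, 91.4 and 158 in aversive, 92.8 and 7.39 in appetitive, and 0, 9.70 and 60.6 in neutral libraries. Mock library 3 lay 8.86-fold above the next library, and both aversive libraries were above all neutral ones, while appetitive library 2 lay among the neutral values. The appetitive estimate against neutral, 1.10 (SE 1.98, adjusted p = 0.748), turned negative by library size alone and without appetitive library 1 (-1.78). The 0 in neutral library 1 allows up to 0.0473 CPM (3 counts), a limit that covers counting error only, as do all limits and counting intervals given here. The edgeR estimate for aversive against neutral was 2.41 on the log2 scale (SE 2.01, adjusted p = 0.542).

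P2ry12 encodes the purinergic receptor with which microglia sense ADP and direct their processes. Its CPM was 186, 217 and 1205 in mock, 554 and 249 in aversive, 646 and 145 in appetitive, and 7.76, 45.9 and 31.0 in neutral libraries. Every neutral library was below every library of the other groups, which overlapped one another. On the log2 scale, aversive exceeded neutral by 3.83 (SE 1.07, adjusted p = 0.152) and appetitive by 3.81 (SE 1.07, adjusted p = 0.0569), and appetitive differed from aversive by -0.02 (SE 1.12, adjusted p = 1).

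Csf1r encodes the receptor for CSF1 and IL-34 on which microglial survival depends. Its CPM was 399, 373 and 2768 in mock, 360 and 216 in aversive, 228 and 228 in appetitive, and 0.631, 80.1 and 26.6 in neutral libraries. Its groups were ordered mock, then aversive and appetitive, then neutral: the aversive and appetitive libraries were below all mock libraries, and all neutral libraries were below the rest. Aversive and appetitive overlapped. Mock library 3 was 6.93-fold above the next library, and the estimates against mock were -2.04 for aversive (SE 1.45, adjusted p = 0.626), -2.37 for appetitive (SE 1.47, adjusted p = 0.317) and -5.04 for neutral (SE 1.42, adjusted p = 0.174).

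Adgre1 encodes F4/80, an adhesion G protein-coupled receptor used as a macrophage marker. Its CPM was 32.0, 22.7 and 133 in mock and 164 and 30.3 in aversive libraries. In appetitive libraries it had 2 counts and 1 count, or 0.156 and 0.0524 CPM. In neutral libraries its CPM was 0, 12.04 and 0.0257, so that library 2 carried the neutral signal. Both appetitive libraries lay below all mock and all aversive libraries. The aversive mean was 1034 times the pooled appetitive level (95% counting interval of the 3 appetitive counts 354 to 5014), and the mock mean was 667 times it (228 to 3232). Without aversive library 1 the ratio was 322, and without mock library 3 it was 291. The edgeR test gave an adjusted p of 0.162 for appetitive against aversive and 0.148 against mock, and neither passed the threshold of 0.05. Each of the other 9 genes had at least 141 counts in both appetitive libraries. Outside the 10 genes, such near-absence in appetitive libraries was not particular to Adgre1. The homeostatic marker Slc2a5 had 0 CPM in both of them, against 142 and 88.3 in aversive libraries. At most 3 counts in each were also found for 3 of 10 genes of activated microglia. The Adgre1 estimate for appetitive against neutral turned from lower to higher without neutral library 2, so no order is read between those groups.

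Tmem119 encodes a transmembrane protein used to tell microglia from other macrophages. Its CPM was 93.4, 82.5 and 715 in mock, 484 and 82.3 in aversive, 156 and 26.1 in appetitive, and 2.59, 33.2 and 24.9 in neutral libraries. Neutral was below mock and aversive throughout, and appetitive library 2 lay between neutral libraries 2 and 3. Aversive exceeded neutral by 3.81 on the log2 scale (SE 1.34, adjusted p = 0.187) and appetitive exceeded it by 2.17 (SE 1.28, adjusted p = 0.264).

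C1qa, C1qb and C1qc encode the chains of complement C1q. C1qa had a CPM of 88.2, 144 and 505 in mock, 684 and 213 in aversive, 320 and 81.6 in appetitive, and 2.05, 17.3 and 17.8 in neutral libraries. C1qb had 240, 575 and 1096 CPM in mock, 2119 and 612 in aversive, 1044 and 228 in appetitive, and 3.96, 78.3 and 54.9 in neutral libraries. C1qc had 181, 343 and 758 CPM in mock, 1614 and 327 in aversive, 936 and 85.0 in appetitive, and 0, 83.2 and 34.9 in neutral libraries. For each chain aversive library 1 was highest and every neutral library was below every other library. By library size alone mock library 3 was highest for C1qa and C1qb, and neutral library 2 was above appetitive library 2 for C1qc, at 107 against 95.7 CPM. Against neutral the C1qa estimate was 5.18 for aversive (SE 1.17, adjusted p = 0.115) and 4.02 for appetitive (SE 1.12, adjusted p = 0.0556). The C1qb estimate was 4.90 for aversive (SE 1.20, adjusted p = 0.123) and 3.80 for appetitive (SE 1.15, adjusted p = 0.0673). The C1qc estimates had wider errors, at 4.62 (SE 1.97, adjusted p = 0.243) and 3.70 (SE 1.90, adjusted p = 0.212).

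Aif1 encodes IBA1, the cytoplasmic actin-binding protein by which microglia are usually stained. Its CPM was 22.2, 43.5 and 62.5 in mock, 230 and 86.5 in aversive, 31.2 and 47.7 in appetitive, and 2.26, 9.27 and 3.10 in neutral libraries. It was the only one of the 10 genes for which both aversive libraries were above all libraries of the other groups. The log2 fold change of aversive was 5.02 against neutral (SE 1.011, adjusted p = 0.103) and 1.89 against mock (SE 0.917, adjusted p = 0.503). Appetitive lay 2.00 below aversive on the same scale (log2 fold change -2.00, SE 1.05, adjusted p = 0.312).

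Sall1 encodes the zinc finger transcription factor of microglial identity. Its CPM was 21.5, 7.86 and 141 in mock, 0.05004 and 5.79 in aversive, 94.2 and 43.2 in appetitive, and 0, 6.64 and 3.76 in neutral libraries. Between aversive and appetitive its order was the reverse of that of Adgre1 and Aif1: both appetitive libraries were above both aversive libraries and above all neutral ones, and both aversive libraries were below all mock libraries, though by library size alone aversive library 3 and mock library 2 were level at 7.40 and 7.37 CPM. Aversive library 1, the library with the most C1q, had 1 count of Sall1. The estimate for appetitive against aversive was 4.55 (SE 2.58, adjusted p = 0.353) and for aversive against mock -4.27 (SE 2.48, adjusted p = 0.550).

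Compared with neutral, the aversive and appetitive groups carried more of nearly all these transcripts, by fold changes whose median was 4.21 on the log2 scale for aversive and 3.36 for appetitive, against -0.15 and -0.91 over all tested genes. The libraries did not overlap for 9 of the 10 genes between aversive and neutral, all but Sall1, each with the aversive libraries higher. Among all tested genes 14.4% showed that order. For appetitive against neutral the count was 7 of 10 (all but Cx3cr1, Tmem119 and Adgre1), against 11.4% of tested genes. All 10 genes were lower in every neutral than in every mock library, against 15.9% of tested genes, with a median log2 fold change of -4.00. By library size alone, the counts of genes that did not overlap were 8, 6 and 8, and no share of all tested genes was taken on that scale.

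None of the 10 genes passed an adjusted p of 0.05 in any of the 6 comparisons with edgeR. The share of all tested genes that passed was 0.0405% for aversive against neutral, 6.17% for appetitive against neutral, 1.80% for appetitive against aversive, 0% for aversive against mock, 1.98% for appetitive against mock and 0.0861% for neutral against mock. At an unadjusted p under 0.05, 7 of the 10 genes differed between aversive and neutral (19.1% of tested genes), 4 between appetitive and neutral (29.3%) and 6 between neutral and mock (13.5%). It was 1 of 10 between appetitive and aversive (20.0%), 0 between aversive and mock (9.96%) and 1 between appetitive and mock (23.8%). DESeq2, which gave no p-value for Cx3cr1, called 5 of the other 9 genes in aversive against neutral (9.84% of the genes it tested), 4 in appetitive against neutral (17.6%) and 6 in neutral against mock (4.64%). It called 1 in appetitive against aversive (11.7%), 0 in aversive against mock (4.26%) and 1 in appetitive against mock (13.7%). In edgeR without its filter on low counts, 8 of the 10 genes passed in aversive against neutral (2.45%), 7 in appetitive against neutral (7.19%) and 7 in neutral against mock (1.47%), while 1 passed in appetitive against aversive (3.60%), 0 in aversive against mock (0.0284%) and 2 in appetitive against mock (3.19%). The call of each comparison with neutral thus depended on the tool and on the filter. The common biological coefficient of variation over all tested genes was 1.22, so that a spread of several-fold between libraries of 1 group was usual.

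**Figure D2:**
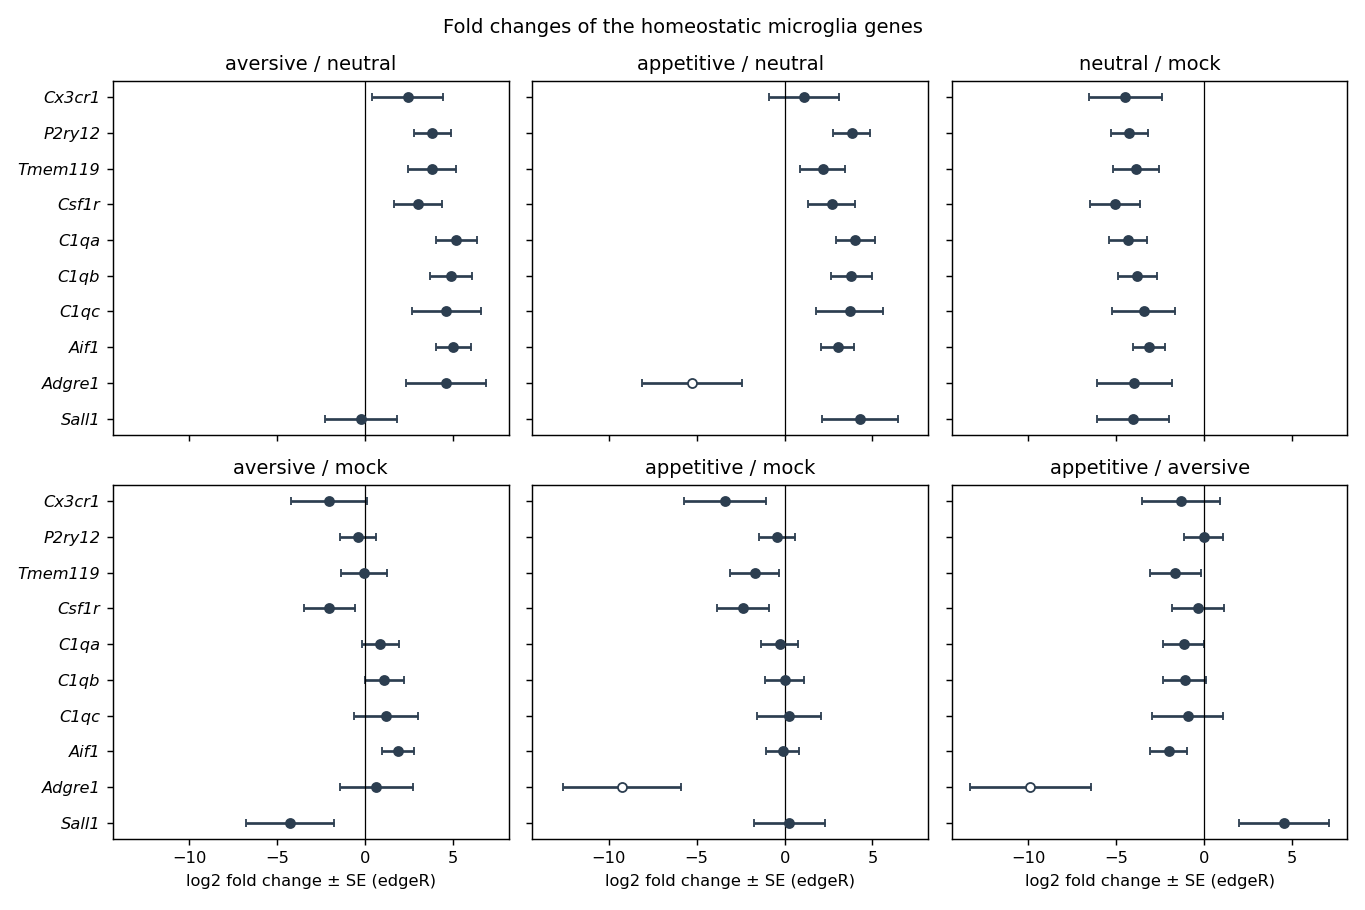
Points are log2 fold changes from edgeR and bars their standard errors, for the 10 genes in each of the 6 comparisons. Filled points lie to the right of 0 in both comparisons with neutral for 8 genes and to the left for all 10 in neutral against mock; open points mark Adgre1 where the appetitive group had only 2 counts and 1 count, for which the fitted value depends on the prior count.

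Between the groups that shared a kit and sequencer, median differences were smaller and changed with single libraries, and none of the 10 genes passed the edgeR test. Adgre1 and Sall1 were exceptions in size. The Adgre1 estimate was -9.88 in appetitive against aversive and -9.25 in appetitive against mock, from 2 counts and 1 count in appetitive. Its sign held in both on leaving out each library. The Sall1 estimate was 4.55 in appetitive against aversive and -4.27 in aversive against mock. The log2 fold change was below 0 for 9 of the 10 genes in appetitive against aversive, all but Sall1, for 8 in appetitive against mock and for 5 in aversive against mock. The median log2 fold change was -1.13, -0.36 and 0.28 in that order, beside -0.48, -1.45 and -0.13 over all tested genes. On leaving out 1 library the medians ranged from -2.68 (without appetitive library 1) to -0.039 (without aversive library 1), from -2.29 (without appetitive library 1) to 0.47 (without mock library 3), and from -1.14 (without aversive library 1) to 1.72 (without mock library 3). Over all tested genes the medians in the same fits also moved: -1.41 and -0.22, -3.80 and -0.78, and -0.69 and 0.045. For the 10 genes, the median for aversive against mock was below 0 by library size alone, and that for appetitive against mock was above 0 by DESeq2 size factors. In appetitive against aversive, Aif1 and Adgre1 were lower in both appetitive libraries, 2 of 10 against 20.1% of tested genes, and Sall1 was higher, 1 of 10 against 8.34%. The count of lower genes was 8 by library size alone and also 8 without appetitive library 1, 7 without aversive library 3 and 3 without aversive library 1. The count of higher genes was 2 without aversive library 1 or appetitive library 2. In aversive against mock, Csf1r and Sall1 were lower without overlap, 2 of 10 against 24.7%, and Aif1 was higher, 1 of 10 against 11.4%. The count of lower genes was 1 by library size alone and by DESeq2 size factors, and that of higher genes was 5 without mock library 3 or aversive library 3. In appetitive against mock, Csf1r and Adgre1 were lower, 2 of 10 against 38.9%, and this count was 4 by library size alone and 8 without appetitive library 1. For the other scalings and with a library left out, no share of all tested genes was taken. With fewer libraries groups stand apart more easily, so those counts are not read as a result about the 10 genes.

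Transcript levels differed widely among the 10 genes. On the scale of CPM per kb of exon, C1qb ranked first in 10 of 10 libraries. Its mean in mock was 586 CPM per kb (SD 397, n = 3), and it stood at or above the 98.9 percentile of tested genes in each of the 7 libraries that were not neutral. Next in mock came C1qa at 236 CPM per kb (SD 218), C1qc at 221 (SD 154), P2ry12 at 211 (SD 228) and Csf1r at 204 (SD 238), which did not differ beyond their spread. Tmem119 followed at 128 (SD 156) and Cx3cr1 at 116 (SD 170). The lowest 3 were Aif1 at 27.9 (SD 13.2), Adgre1 at 19.4 (SD 19.0) and Sall1 at 10.8 (SD 13.9), whose ranges also overlapped. In neutral libraries C1qb stood between the 64.04 and 97.26 percentile.

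C1qb kept a steadier share of C1q than its sum did across libraries. C1qb gave 53.4 to 64.9% of the summed C1q CPM per kb in every library. The C1qa share was 12.6 to 25.7% in the 9 libraries other than neutral library 1, which had 381 C1q counts and none of C1qc, and the C1qc share in those 9 was 13.3 to 32.7%. Set against the receptors Cx3cr1, P2ry12 and Csf1r, summed per kb, C1q was 2.48, 5.07 and 1.49 times as abundant in mock, 11.5 and 5.51 times in aversive, 5.59 and 3.39 times in appetitive, and 1.78, 3.87 and 2.83 times in neutral libraries. Both aversive libraries were above all mock and all neutral libraries in this ratio, and overlapped with appetitive. Mock library 3 had the lowest ratio and the highest receptor levels.

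**Figure D3:**
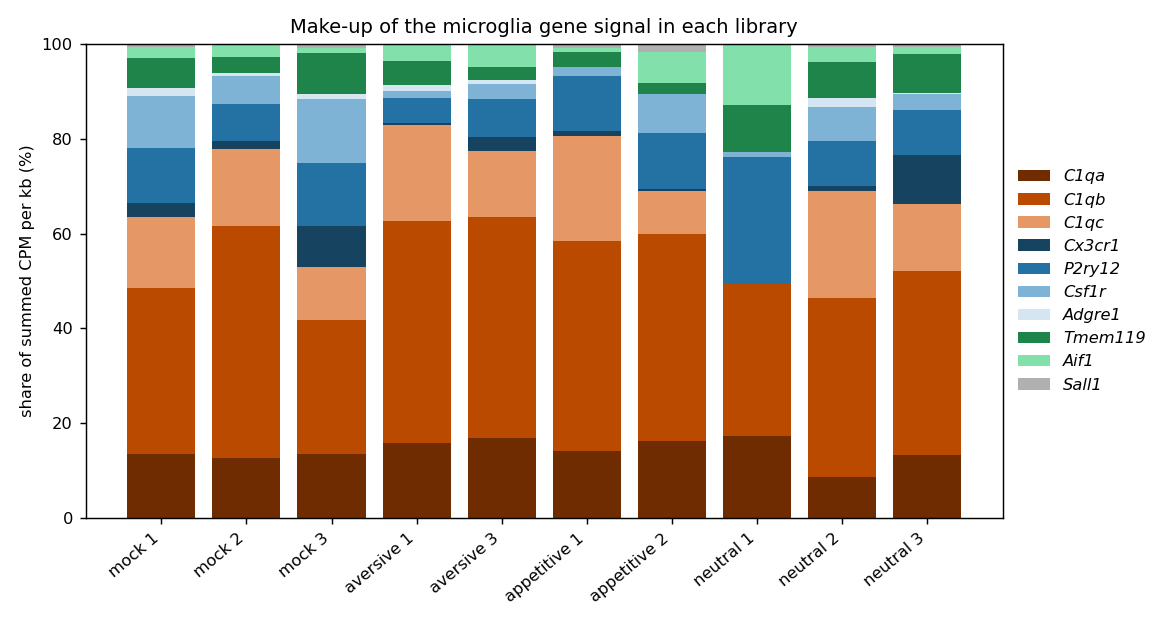
Bars show the share of each gene in the summed CPM per kb of the 10 genes, in percent, for each library. The brown C1q segments take 49.4 to 82.9% of every bar, and the dark blue Cx3cr1 and light blue Csf1r segments are widest in mock library 3 among the libraries that are not neutral.

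Across the 10 libraries most of these genes varied together. Over the 28 pairs without Adgre1 and Sall1, the median Pearson r of log2(CPM + 1) was 0.90, with a lowest value of 0.59. The C1q pairs had r of 0.96 to 0.99. Adgre1 and Sall1 were set aside after their values were seen: the median r was 0.63 for the pairs with Adgre1 and 0.45 for those with Sall1, which overlapped the lower end of the 28, and with each other they had r = -0.01. Over the 7 libraries without neutral the median of the 28 pairs was 0.69. There the C1q pairs still had r of 0.95 to 0.97, while Csf1r with C1qb had 0.29 and Aif1 with Sall1 -0.69. These correlations are descriptions over few libraries that share kits and groups.

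**Figure D4:**
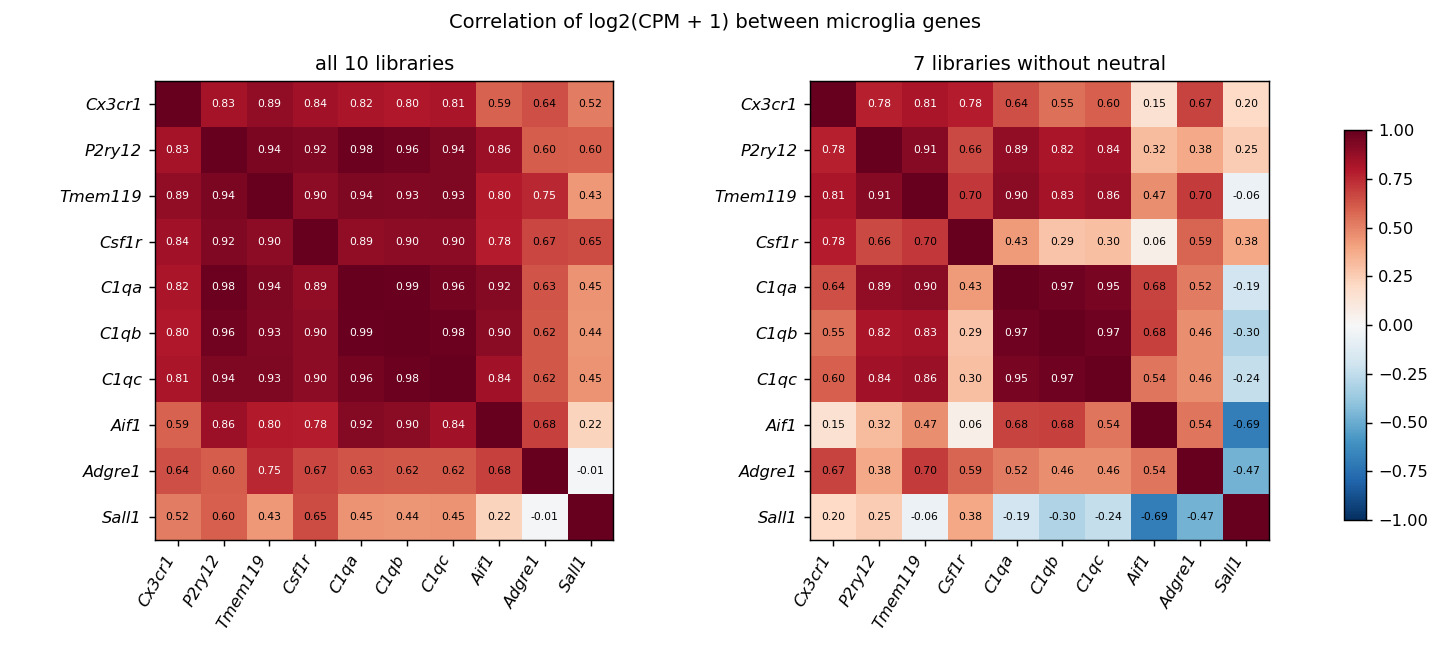
Each cell gives the Pearson r of log2(CPM + 1) between 2 genes, over all 10 libraries on the left and over the 7 libraries without neutral on the right, from -1 (blue) to 1 (red). The C1q block stays dark red in both, and the Sall1 row turns to blue against Aif1 and Adgre1 without neutral.

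Among tested genes outside the set, those whose pattern over the 10 libraries was most like the mean of the 10 genes included Laptm5 (r = 0.97), Olfml3 (r = 0.97), Siglech (r = 0.97), Ly86 (r = 0.97), Ctss (r = 0.96), Selplg (r = 0.96), Trem2 (r = 0.95), Tyrobp (r = 0.94) and Lair1 (r = 0.94). All of these but Lair1 belong to a list of 15 other homeostatic microglia markers. Tyrobp, the adaptor of TREM2, had 57.2, 135 and 188 CPM in mock, 547 and 147 in aversive, 212 and 87.4 in appetitive, and 0.489, 8.79 and 9.85 in neutral libraries. It was 1 of 2 genes among the 15 that passed the test in appetitive against neutral, where appetitive exceeded neutral by 4.55 on the log2 scale (SE 1.16, adjusted p = 0.0439). None of the 15 passed in the other 5 comparisons with edgeR, where at an unadjusted p under 0.05 there were 11 higher in aversive than in neutral (19.1% of tested genes passed in either direction), 12 lower in neutral than in mock (13.5%), 1 in appetitive against aversive (20.0%), 0 in aversive against mock (9.96%) and 1 in appetitive against mock (23.8%). Aversive libraries were above neutral without overlap for 15 of 15 of these markers (14.4% of tested genes), appetitive for 11 of 15 (11.4%), and neutral below mock for 13 of 15 (15.9%), and the list medians were 3.92, 2.79 and -4.21.

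The signals and regulators of microglia did not follow one pattern. Of 12 such genes none passed in any comparison with edgeR, and between 0 and 3 had an unadjusted p under 0.05. Spi1, the gene of PU.1, had r = 0.90 with the mean of the 10 genes and 12.9, 50.5 and 56.1 CPM in mock, 49.7 and 24.3 in aversive, 52.9 and 28.3 in appetitive, and 0.331, 5.17 and 0.437 in neutral libraries. Cx3cl1, the neuronal ligand of Cx3cr1, had r = -0.26 and 22.1, 103 and 53.7 CPM in mock, 9.86 and 22.8 in aversive, 3.28 and 0.157 in appetitive, and 76.4, 40.5 and 68.9 in neutral libraries. Spi1 was thus lowest in neutral, as most of the 10 genes were, and Cx3cl1 was lowest in appetitive. Il34, a ligand of Csf1r, ranged from 0.0524 to 77.3 CPM within appetitive alone. Both Cx3cl1 and Il34 were chosen for mention after their values were seen, as was Spi1.

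Other complement genes and genes of activated microglia gave few calls. Of 12 complement genes, 1 passed in appetitive against neutral, where 6.17% of tested genes did, and none in the other 5 comparisons, where 1 to 4 had an unadjusted p under 0.05. It was C3ar1, the receptor for C3a, with 126.8 and 0.262 CPM in appetitive libraries and 0, 0.0231 and 0 in neutral ones, so the call rests on appetitive library 1. The log2 fold change of appetitive against neutral was above 0 for 6 of the 12 complement genes and below it for 6. Of 10 genes of activated microglia, 1 passed in appetitive against neutral, the lysosomal glycoprotein gene Cd68 (log2 fold change 4.13, SE 1.02, adjusted p = 0.0408), and none in the other comparisons. Most of this list went the other way in appetitive against neutral, with 6 of the 10 below 0 and 4 above it. The CPM of Cd68 was 238 and 43.9 in appetitive and 5.44, 13.6 and 5.20 in neutral libraries. At an unadjusted p under 0.05, 6 of the 10 were lower in appetitive than in aversive (20.0% of tested genes in either direction), and 2 to 4 differed in each of the other comparisons. Of those 6, Cst7, Clec7a and Gpnmb had at most 3 counts in each appetitive library. Clec7a and Gpnmb also each rested on 1 aversive library, with 53.0 and 0.0200 CPM and with 0.100 and 42.5 CPM in aversive libraries 1 and 3.

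The labelled material was checked against markers of other cells. Border macrophage markers, 8 genes such as Mrc1 and Cd163, summed to between 7.43 and 323 CPM, less than the 10 microglia genes in every library. In neutral libraries Pf4, F13a1 and Ms4a7 had at most 3 counts, and in appetitive libraries F13a1, Cbr2 and Ms4a7 did. Of these 8, Pf4 passed in appetitive against neutral, where 6.17% of tested genes did. It had 23.6 and 0 CPM in appetitive and 0 in all neutral libraries. Pf4 was higher in appetitive, while 5 of the 8 had a log2 fold change below 0 in that comparison. F13a1 passed in appetitive against mock (1.98% of tested genes passed), where it was lower, as were all 8 by log2 fold change. Neuron markers summed to 81.0 to 107 CPM in neutral, 208 to 321 in mock, 818 to 913 in aversive and 219 to 1254 in appetitive libraries. In mock library 3, which had 8787 CPM of the 10 microglia genes, the neuron sum was 231 CPM.

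Some lists of other brain cells also set the neutral group apart, and others did not. Astrocyte markers summed to 166 to 353 CPM in neutral against 3270 to 15097 in the other libraries. Choroid plexus markers summed to 21124 to 130500 CPM in neutral against 849 to 13699. Oligodendrocyte sums overlapped, at 7470 to 35506 CPM in neutral against 25443 to 802662. Endothelial and mural sums overlapped widely, at 232 to 5464 CPM in neutral against 354 to 3994. Neutral was thus lower for astrocyte and, as given above, neuron markers as well as microglia markers, and higher for choroid plexus markers. Blood cell markers summed to 2.08 to 56.9 CPM in neutral against 111 to 1789 in the other libraries, where the haemoglobin gene Hbb-bs gave most of it, and none of the 8 tested passed in any comparison with edgeR, with 1 to 5 at an unadjusted p under 0.05.

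Single genes of these lists passed too. Slc1a2, Slc1a3 and Aldoc, astrocyte genes of glutamate uptake and glycolysis, exceeded neutral in appetitive libraries by 6.45 (SE 0.903, adjusted p = 0.0102), 3.85 (SE 0.799, adjusted p = 0.0254) and 3.57 (SE 0.665, adjusted p = 0.0191) on the log2 scale. Slc1a2 also passed in aversive against neutral (7.51, SE 0.944, adjusted p = 0.0357), and all 3 passed as lower in neutral than in mock (adjusted p = 0.0482 each). The neuron genes Snap25 and Nrgn were higher in appetitive than in neutral, by 4.18 (SE 0.860, adjusted p = 0.0245) and 4.35 (SE 1.12, adjusted p = 0.0456). The neuron list as a whole was split there: of its 10 genes, 5 had a log2 fold change above 0 and 5 below it. Among choroid plexus genes, Ttr, which encodes transthyretin, was lower in appetitive (-5.44, SE 1.04, adjusted p = 0.0210), as was the folate receptor gene Folr1 (-7.05, SE 1.65, adjusted p = 0.0355). Clic6 had 0.782 and 0 CPM in appetitive and 647, 95.96 and 572 in neutral libraries (adjusted p = 0.0404). The water channel gene Aqp1 had 0.156 and 0.0524 CPM in appetitive and 90.9, 26.6 and 106.0 in neutral libraries (adjusted p = 0.0355). Of 10 genes that respond to tissue dissociation, Atf3 passed in appetitive against neutral, with 812 and 292 CPM in appetitive against 11.1, 33.1 and 7.01 in neutral libraries (adjusted p = 0.0329). The summed dissociation genes overlapped between groups, at 1018 to 3905 CPM in neutral and 1724 to 9471 in the other libraries. The part of these other cells and of dissociation in the microglia values was not tested.

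**Figure D5:**
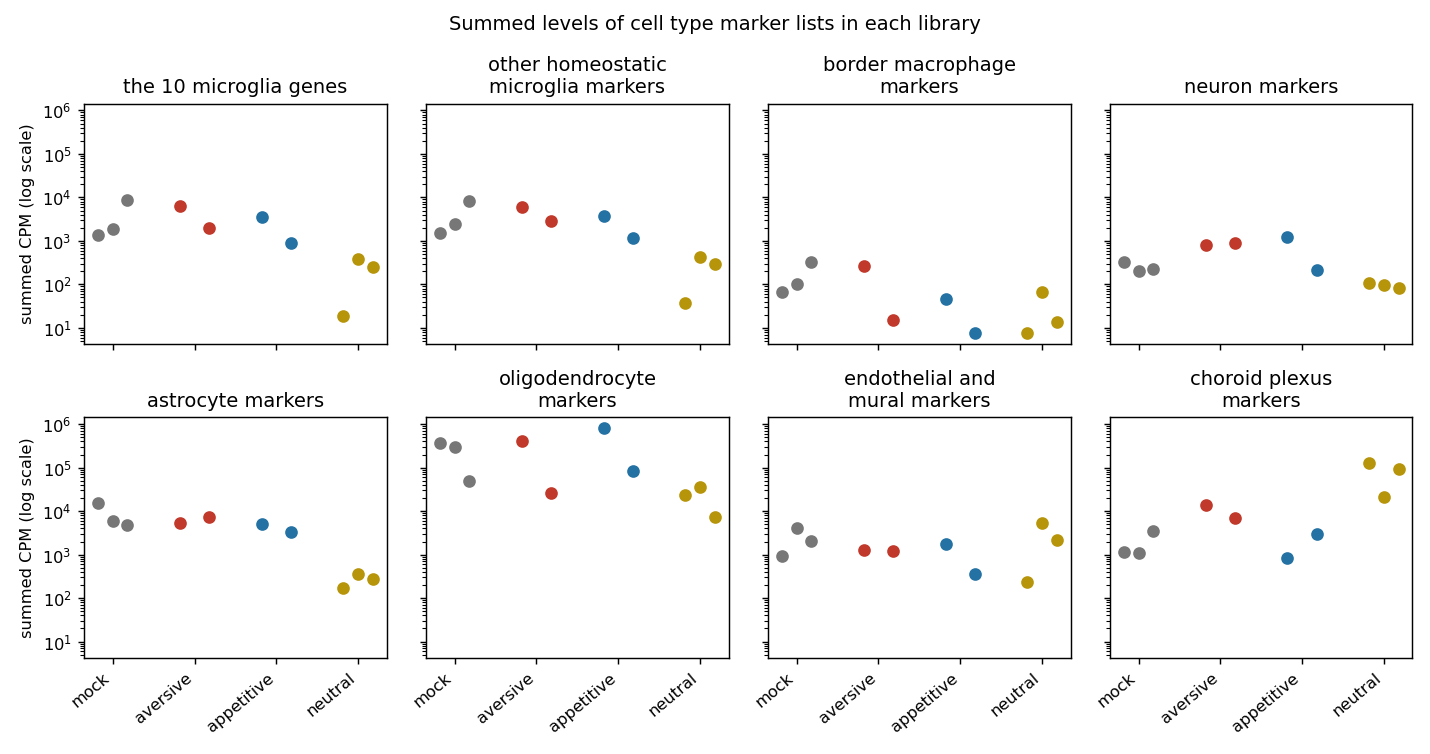
Summed CPM of 8 marker lists, on a log scale, by group, with a point for each library. Neutral libraries are lowest for the 10 microglia genes and the other homeostatic, astrocyte and neuron markers. They are highest for the choroid plexus markers, while oligodendrocyte sums spread widely within groups.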

How the data were processed

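Reads were cut to their first 40 bp by the authors, mapped to mm10 by STAR and counted per Ensembl gene, ignoring strand, by featureCounts; the deposited values are raw counts for each library; tool versions are not given in the sources used here. Groups and replicate numbers came from the titles. The members and gene lists were chosen with earlier results of these data known, as were the promoter motifs. Symbols, positions and exon lengths came from GENCODE M21.

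Counts were tested with edgeR 4.0.16 in R 4.3.3: TMM scaling (factors 0.48 to 1.45), filterByExpr, 1 quasi-likelihood fit of 4 groups over 10 libraries, two-sided tests, Benjamini-Hochberg adjustment over 19754 genes and a threshold of 0.05. Standard errors were the log2 fold change divided by the root of F. Scripts were tested on simulated counts. CPM are TMM-normalized, and a level of 3 counts was the floor. Correlations used log2(CPM + 1). All 10 members were named, with up to 4 genes per direction, comparison and list past the threshold, and the 10 most similar genes, of which 1, which also passed a test, is not reported here. Same-numbered libraries deviated from their group means with r of -0.08 to 0.20 over 12 pairs. For libraries with different numbers r was -0.16 to 0.16 over 25 pairs. Deviations of the aversive libraries mirrored each other, as did those of the appetitive libraries. These r values therefore cannot decide whether the numbers pair the libraries. Alternatives were DESeq2 1.42.0, other scalings, filters and sample sets, a replicate block and leaving out each library.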

Additional observations from a re-analysis of the deposited data

How the results depend on the processing

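The number of the 10 genes called depended on the tool and the filter. It was 0 in edgeR for all 6 comparisons. DESeq2 called 5 in aversive against neutral, 4 in appetitive against neutral, 6 in neutral against mock, 1 in appetitive against aversive and 1 in appetitive against mock. Without a filter on low counts edgeR called 8, 7, 7, 1 and 2 in the same order. With at least 10 counts in every library, which left 6 of the genes, it called 1 in aversive against neutral. Of all 4661 genes left by that filter, 29 were called higher there and 12 lower. DESeq2 size factors in edgeR gave 2 in appetitive against neutral, where 246 of 19754 tested genes were called higher and 913 lower. Fitting only the groups compared gave 1 in appetitive against mock, where 113 of 16471 tested genes were called higher and 3472 lower. Leaving out 1 library of mock or of neutral gave 0 in every comparison, and calls are not given where 1 library was left in a group. With the replicate number as a block it stayed 0, though whether the numbers pair the libraries is not known. The cause of these shifts was not tested. The direction of each gene against neutral and of neutral against mock held under every setting, except for Cx3cr1 and Adgre1 in appetitive and Sall1 in aversive against neutral. Cx3cr1 gave -0.14 by library size alone and -1.78 to 3.39 on leaving out 1 library, Adgre1 -6.31 to 2.66, positive only without neutral 2, and Sall1 -6.03 to 0.74.

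Between mock, aversive and appetitive several fold changes turned. Aversive against mock, on leaving out 1 library, ranged from -1.12 to 1.84 for Adgre1 (-0.019 by library size alone), -0.27 to 1.96 for C1qa, -0.12 to 1.75 for C1qb, -0.45 to 1.90 for C1qc, -2.55 to 0.67 for Cx3cr1, -1.17 to 1.01 for P2ry12 and -1.91 to 1.69 for Tmem119. Tmem119 was also 0.17 in DESeq2 and with its size factors, 0.027 unfiltered, 0.12 with only the groups compared and 0.31 with the replicate block. Appetitive against mock ranged from -0.63 to 0.28 for Aif1, -1.77 to 0.82 for C1qa, -1.67 to 0.67 for C1qb, -2.52 to 0.99 for C1qc, -2.07 to 1.00 for P2ry12, -0.57 to 2.25 for Sall1 and -3.68 to 0.073 for Tmem119. DESeq2 and its size factors gave 0.18 for Aif1, 0.11 for C1qa, and 0.37 and 0.38 for C1qb. The replicate block gave 0.20 for C1qa, 0.35 for C1qb and 0.10 for P2ry12, C1qb was 0.067 unfiltered and 0.11 with only the groups compared, and library size alone gave -0.95 for C1qc and -0.71 for Sall1. Appetitive against aversive ranged from -3.68 to 0.54 for C1qc, -1.63 to 0.56 for P2ry12 and -3.60 to 0.039 for Tmem119, and P2ry12 was 0.18 in DESeq2 and with its size factors and 0.20 with the block.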
